A study of Homo sapiens with 8 samples.

Results

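The mRNAs of 4 genes that act at broken DNA, PARP1, PRKDC, XRCC5 and XRCC6, were examined for sites bound by G3BP1, a protein that binds RNA and forms the core of stress granules. Their sites were taken as the deposited peaks that lie inside a window around each gene on its transcribed strand, and the genes were selected on the peaks they hold, with the counts and enrichment of those peaks known. All counts and enrichments here therefore describe the genes and are not tested. Of 4346 peaks in the series, 123 (2.83%) met this rule, 81 of 2925 in the PDS list (2.77% of that list) and 42 of 1421 in the Ctrl list (2.96%). The PRKDC window held 71 of them, the PARP1 window 45, the XRCC6 window 4 and the XRCC5 window 3.

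The sites were mapped by seCLIP, a method that fixes RNA to its bound proteins by UV irradiation, pulls down 1 protein with an antibody (the IP) and sequences the attached fragments, with an input library as the comparison. The cells were HEK293T, a widely used line of human embryonic kidney origin. The 8 libraries formed 4 groups of 2 replicates, namely IP and input after 12 h in 20 µM PDS, and IP and input without treatment (Ctrl). The labels do not spell out PDS, which in work on guanine quadruplexes usually stands for pyridostatin, a ligand of these structures that is also reported to cause DNA breaks. The deposited lists give 1 enrichment and 1 p-value per peak for both replicates together, so no value has a replicate error, differences between the lists carry no replicate test, and the depth behind a peak is unknown.

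PARP1 encodes poly(ADP-ribose) polymerase 1, which detects broken DNA strands and marks nearby proteins with chains of ADP-ribose. XRCC6 and XRCC5 encode Ku70 and Ku80, which together form a ring that slides onto DNA ends, and PRKDC encodes the catalytic subunit of DNA-PK, the large kinase that Ku recruits there for end joining. All 4 proteins are abundant in dividing human cells. G3BP1 is best known for gathering untranslated mRNAs into stress granules, and the series asked where it binds mRNA with and without PDS.

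In hg19 the windows ran from 226548300 to 226595900 on the minus strand of chromosome 1 for PARP1 (47.6 kb), from 48685600 to 48872800 on the minus strand of chromosome 8 for PRKDC (187.2 kb), from 216972100 to 217071100 on the plus strand of chromosome 2 for XRCC5 (99.0 kb) and from 42017000 to 42060100 on the plus strand of chromosome 22 for XRCC6 (43.1 kb). The gene names rest on these windows. An hg19 annotation was not used here, so exons, introns and untranslated regions were not assigned, and positions are given as distances from the window's edges along the transcribed strand. None of the windows held a peak on the opposite strand in either list, and widening each by 5000 nt at both ends added 0 peaks. Window lengths include introns, so a density per window is not a density per mRNA.

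PARP1 and PRKDC carried many sites, and both Ku genes carried few beside them. PRKDC had 44 PDS and 27 Ctrl peaks, and PARP1 had 33 PDS and 12 Ctrl peaks. XRCC5 had 2 PDS peaks and 1 Ctrl peak, and XRCC6 had 2 in each list. Per 10 kb of window this came to 6.93 PDS and 2.52 Ctrl peaks in PARP1, 2.35 and 1.44 in PRKDC, 0.464 and 0.464 in XRCC6, and 0.202 and 0.101 in XRCC5. When peaks of both lists were chained over gaps of up to 10000 nt, PARP1 formed 1 locus, and 5 of the 1191 other loci held at least as many PDS peaks as it did. Both PDS peaks of XRCC6 lay in 1 such locus, and 458 of the 1190 other loci held at least as many. The PRKDC peaks were spread over 6 such loci, of which the richest held 16 PDS and 12 Ctrl peaks. Since other genes may be split in the same way and were not summed per gene, the total of PRKDC was not ranked among loci. The counts given for PARP1 and XRCC6 have the same limit, because they compare a gene with loci and not with genes. PRKDC, with 44 PDS peaks against 33 in PARP1, was not among the 5 loci because it was split.

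**Figure D1:**
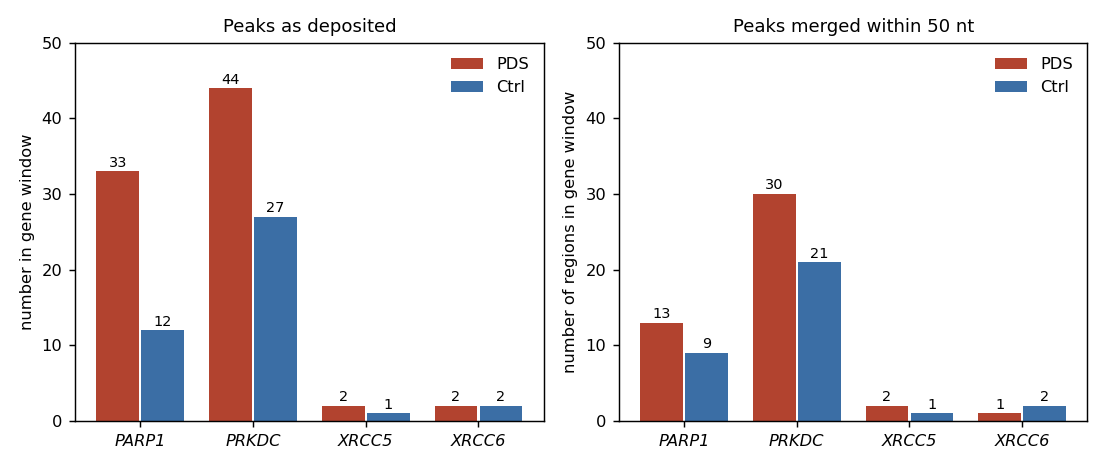
Number of G3BP1 peaks (left) and of regions after merging same-strand peaks within 50 nt (right) in the window of each gene, with the PDS list in red and the Ctrl list in blue. Bars are counts from 1 combined list per condition and carry no error. PARP1 has 33 and 12 peaks, but 13 and 9 regions.

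The PDS list was the longer one as a whole, with 2.06 times the peaks and 1.73 times the merged regions of the Ctrl list. Against that, PARP1 had 2.75 times as many PDS as Ctrl peaks, PRKDC 1.63 times, XRCC5 2 times, and XRCC6 had as many in each list. Many PARP1 peaks were pieces close to each other: merged within 50 nt, they formed 13 PDS and 9 Ctrl regions, a ratio of 1.44, and those of PRKDC formed 30 and 21, a ratio of 1.43. Both ratios lay below the ratio of merged regions in the whole lists. The bound length in PARP1 was 1349 nt in PDS and 621 nt in Ctrl, and in PRKDC it was 1932 nt and 1357 nt. By bound length the ratio was thus 2.17 in PARP1 and 1.42 in PRKDC, against 1.74 for the whole lists, so that PARP1 lay above the lists by this measure and below them by regions. When the PDS list was cut to the 1421 peaks with the highest −log10 p, PRKDC had 24 PDS peaks against 27 Ctrl peaks, which turned the order, while PARP1 had 27 against 12. Cut to the same length by log2 fold, the PDS list kept 32 peaks in PRKDC and 28 in PARP1, and the order did not turn in either gene.

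Enrichment over input in PARP1 and PRKDC lay above the list as a whole in PDS, and in PRKDC also in Ctrl. The median log2 fold in PARP1 was 4.13 over 33 PDS peaks (range 3.15 to 5.11) and 3.57 over 12 Ctrl peaks (3.09 to 4.80). In PRKDC it was 4.02 over 44 PDS peaks (3.02 to 5.37) and 3.76 over 27 Ctrl peaks (3.05 to 5.56). The whole lists had medians of 3.59 in PDS and 3.52 in Ctrl, so the Ctrl median of PARP1 lay close to that of its list. A log2 fold of at least 4 was reached by 21 of 33 PDS peaks in PARP1 (63.6%) and 23 of 44 in PRKDC (52.3%), where 27.6% of the PDS list did so, and by 3 of 12 Ctrl peaks in PARP1 and 12 of 27 in PRKDC (44.4%), where 22.0% of the Ctrl list did. The order of the conditions in PRKDC was not stable: without peaks shorter than 20 nt both medians were 4.02. Among peaks with a −log10 p of at least 5 and a log2 fold of at least 4 the median was 4.35 in PDS and 4.45 in Ctrl. These last medians describe the upper part of the peaks alone, because every peak with a log2 fold below 4 was removed.

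**Figure D2:**
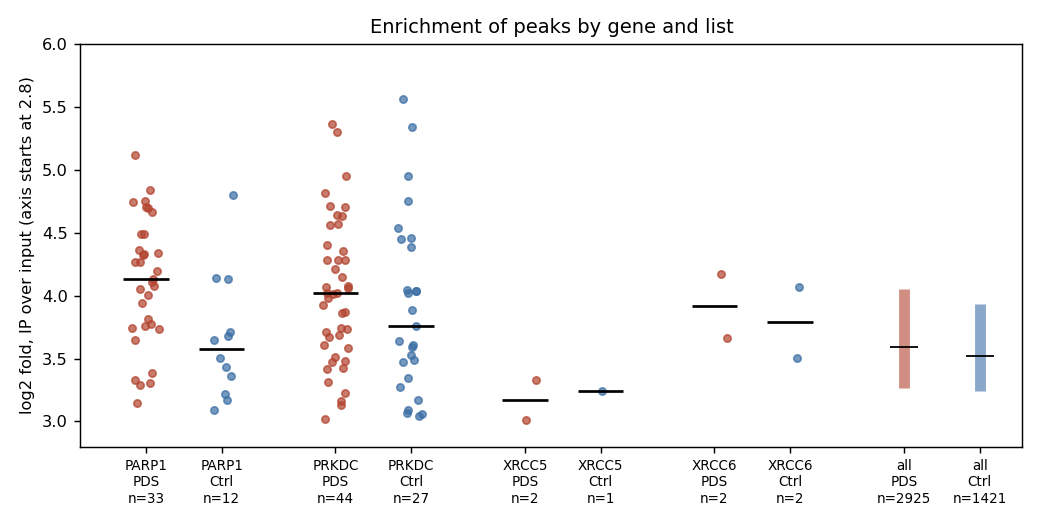
Log2 fold enrichment of IP over input for each peak, by gene and list, with a black line at the median; the bars at the right span the quartiles of the whole PDS and Ctrl lists. The axis starts at 2.8, because every deposited peak lies above 3. PARP1 peaks in PDS have a median of 4.13, against 3.57 in Ctrl.

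Most Ctrl sites of PARP1 and PRKDC were found again in the PDS list. In PARP1, 14 of 33 PDS peaks (42.4%, exact 95% binomial interval 25.5 to 60.8%) overlapped a Ctrl peak, and 10 of 12 Ctrl peaks (83.3%, 51.6 to 97.9%) overlapped a PDS peak. In PRKDC the counts were 27 of 44 PDS peaks (61.4%, 45.5 to 75.6%) and 23 of 27 Ctrl peaks (85.2%, 66.3 to 95.8%). Over the whole lists, 30.6% of PDS peaks and 51.5% of Ctrl peaks overlapped by at least 1 nt. The intervals cover counting error only, and peaks of 1 transcript are not independent. In nucleotides, the overlap took up 40.9% of the PDS and 88.9% of the Ctrl length in PARP1, and 52.8% and 75.2% in PRKDC.

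To compare stretches instead of pieces, peaks of both lists were merged together within 50 nt. PARP1 then had 15 regions, of which 7 held peaks of both lists, 6 PDS peaks alone and 2 Ctrl peaks alone. PRKDC had 32, of which 17 were common, 12 held PDS peaks alone and 3 Ctrl peaks alone. Over the series, 22.4% of 2599 regions were common, 55.4% held PDS peaks alone and 22.2% Ctrl peaks alone.

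**Figure D3:**
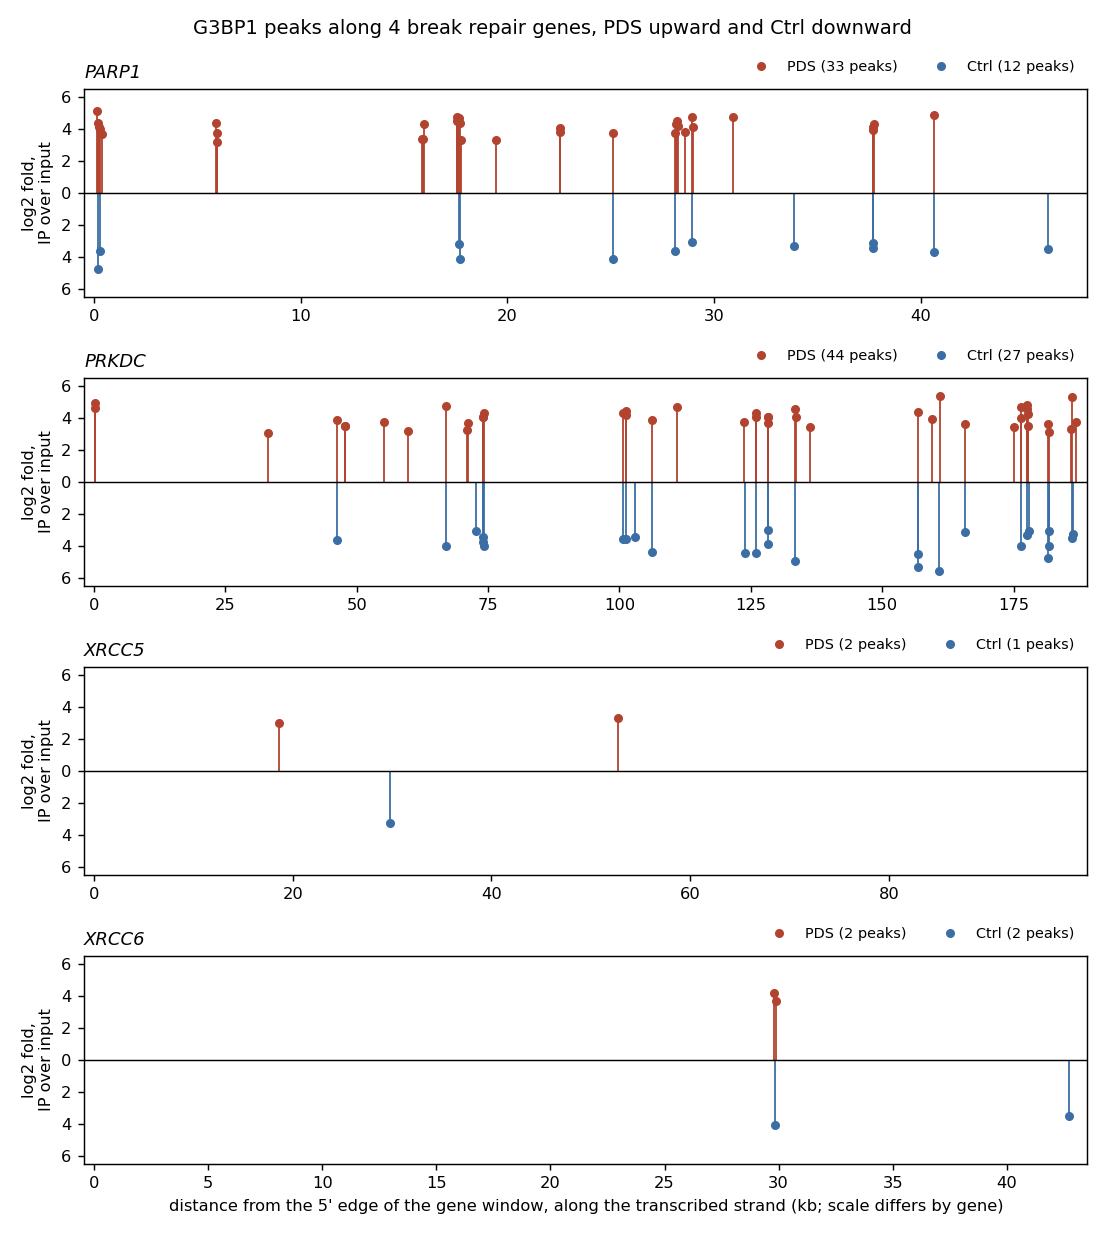
Each peak drawn at its distance from the 5′ edge of the gene window along the transcribed strand (horizontal axis, kb, its scale differing between genes), with its log2 fold enrichment of IP over input as height, upward for PDS in red and downward for Ctrl in blue. Most Ctrl peaks of PARP1 and PRKDC face a PDS peak; the 2 PDS peaks at the 5′ edge of PRKDC face none.

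The 5′ end of PARP1 held its most enriched site in both lists. The PDS peak at 226595700 to 226595773, 127 nt inside the 5′ edge of the window, had a log2 fold of 5.11 (34.6-fold over input) and a −log10 p of 400, which was read as a stand-in for values beyond the range of the authors' table. The Ctrl peak there, at 226595684 to 226595770, had a log2 fold of 4.80 (27.9-fold) and a −log10 p of 47.6. The upstream border of the site therefore differed by 3 nt between the lists. Behind it the PDS list continued with 4 more peaks to 226595512, with log2 folds of 4.36, 4.08, 4.01 and 3.65. In Ctrl 1 further peak followed, at 226595587 to 226595683, with a log2 fold of 3.65. At 262 nt this was the widest bound region of PARP1 in PDS, and at 184 nt the widest in Ctrl.

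The other leading PARP1 peaks in PDS were spread along the gene. They lay at 226555217 to 226555304 (log2 fold 4.84), 226566945 to 226566975 (4.75), 226564926 to 226565002 (4.75) and 226578322 to 226578325 (4.70). The first 2 of these overlapped Ctrl peaks of lower enrichment, with log2 folds of 3.71 and 3.09. The peak at 226564926 to 226565002 had no Ctrl peak within 50 nt, and with a −log10 p of 58.0 it was the most enriched of the 6 PARP1 regions seen in PDS alone. In Ctrl the leaders after the 5′ site lay at 226578181 to 226578238 (log2 fold 4.14), 226570751 to 226570830 (4.13), 226555240 to 226555293 (3.71) and 226567756 to 226567815 (3.68). All 5 leading Ctrl peaks overlapped a PDS peak.

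In the stretch from 226578111 to 226578325, 6 PDS peaks stood against 2 Ctrl peaks. From the upstream side, the PDS pieces were 4, 15, 33, 32, 68 and 16 nt long and had log2 folds of 4.70, 4.49, 4.70, 4.67, 4.34 and 3.29. The Ctrl peaks were 34 and 58 nt long, with log2 folds of 3.22 and 4.14. The 3 upstream PDS pieces, from 226578274 on, overlapped no Ctrl peak, although they continued without a gap from a piece that did. Stretches named here and below that are neither among the 5 most enriched peaks of a list and window nor its widest region nor nearest an edge were chosen after their values had been seen.

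Of the regions of PARP1 seen in PDS alone, 3 others had a highest log2 fold above 4. They ran from 226589924 to 226590031 (3 peaks, highest log2 fold 4.33), from 226579900 to 226580015 (3 peaks, 4.32) and from 226573295 to 226573381 (2 peaks, 4.05). The remaining 2, at 226567274 to 226567284 and at 226576406 to 226576456, reached 3.81 and 3.30. The 2 regions in Ctrl alone were 28 and 22 nt long: 226561996 to 226562023 with a log2 fold of 3.36 and a −log10 p of 6.92, and 226549713 to 226549734 with a log2 fold of 3.50 and a −log10 p of 5.49. The second of these was the Ctrl peak nearest the 3′ edge of the window, 1413 nt from it. In PDS the peak nearest that edge was the one at 226555217 to 226555304, 6917 nt from it.

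PRKDC, by contrast, had no Ctrl peak near its 5′ edge. In PDS a pair of abutting peaks lay 107 nt inside the edge, at 48872635 to 48872693 with a log2 fold of 4.63 and a −log10 p of 35.0, and at 48872594 to 48872634 with a log2 fold of 4.95 (30.9-fold) and a −log10 p of 32.6. The second was the third most enriched PDS peak of the gene. The first Ctrl peak appeared 46.3 kb into the window, at 48826496 to 48826529, with a log2 fold of 3.64. Upstream of it the PDS list had 2 more peaks, at 48839755 to 48839796 with a log2 fold of 3.02, and at 48826536 to 48826608 with 3.87, which lay beside that Ctrl peak without overlapping it. At the other end, the peak nearest the 3′ edge was 207 nt from it in PDS (48685807 to 48685856, log2 fold 3.74) and 892 nt from it in Ctrl (48686492 to 48686550, log2 fold 3.27). Over all 12 PRKDC regions seen in PDS alone, the highest log2 fold had a median of 3.59 and a range of 3.02 to 4.95, whereas the 3 seen in Ctrl alone reached 3.09 to 3.47.

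The strongest PRKDC site of both lists lay in the 3′ part of the window. The PDS peak at 48711819 to 48711951 had a log2 fold of 5.37 (41.3-fold) and a −log10 p of 400, and the Ctrl peak at 48711838 to 48711947 a log2 fold of 5.56 (47.3-fold) and a −log10 p of 53.0. The PDS peak enclosed the Ctrl peak, and they ranked 33 and 10 by log2 fold in their lists. The second PDS peak, at 48686705 to 48686806, reached a log2 fold of 5.30, against 3.53 for the Ctrl peak it enclosed at 48686722 to 48686764. This was the largest difference with the higher value in PDS among the common regions of PRKDC, 1.77 on the log2 scale. The other 2 leading PDS peaks after the one at the 5′ edge lay at 48695153 to 48695159 (log2 fold 4.82) and 48805828 to 48805883 (4.71), and both overlapped a Ctrl peak.

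Several PRKDC sites were more enriched in Ctrl. The peak at 48715885 to 48715910 had a log2 fold of 5.34 in Ctrl and was followed by one at 48715911 to 48715979 with 4.54, whereas the single PDS peak over both, at 48715887 to 48715981, had 4.35. At 48739222 to 48739404 the Ctrl list had a 183-nt peak with a log2 fold of 4.95 and a −log10 p of 400. The PDS list had 2 abutting peaks of 51 and 60 nt there, from 48739218 to 48739328, and none over the upstream part of the Ctrl peak. They had log2 folds of 4.57 and 4.08 and a −log10 p of 31.4 and 34.9. At 48691025 to 48691211, 2 PDS peaks reached a log2 fold of at most 3.58, against 4.75 for the highest of 3 Ctrl peaks, the largest difference of this direction in the gene (−1.17). The widest region of PRKDC in PDS ran over 218 nt, from 48694942 to 48695159, in 4 pieces. The widest in Ctrl ran over 187 nt, from 48691025 to 48691211.

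At the common regions the conditions could be set side by side by the highest log2 fold of each list. In PARP1 it was higher in PDS in 6 of 7 regions and lower in 1, with a median difference of 0.81 (range −0.39 to 1.65). In PRKDC it was higher in PDS in 10 of 17 and lower in 7, with a median difference of 0.23 (−1.17 to 1.77). Over the series, 65.5% of 583 common regions had the higher value in PDS, with a median difference of 0.23, so PRKDC lay at the background. The exception in PARP1 was the site at 226570751 to 226570830, with 3.74 in PDS and 4.13 in Ctrl. The highest −log10 p was larger in PDS in 6 of 7 PARP1 and 12 of 17 PRKDC regions, where 74.3% of all common regions had it so. More peaks in PDS than in Ctrl were found in 5 of 7 PARP1 and 6 of 17 PRKDC regions, where the series had 32.1%. A highest value over more peaks tends to be larger, which limits this comparison. All 5 of those PARP1 regions were among the 6 with the higher log2 fold in PDS. The 2 PARP1 regions with equal numbers of peaks differed by −0.39 and 1.13. Whether the number of peaks shaped the differences was not tested. Each fold is relative to the input of its own condition, and the spread between replicates of such a difference is not known.

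**Figure D4:**
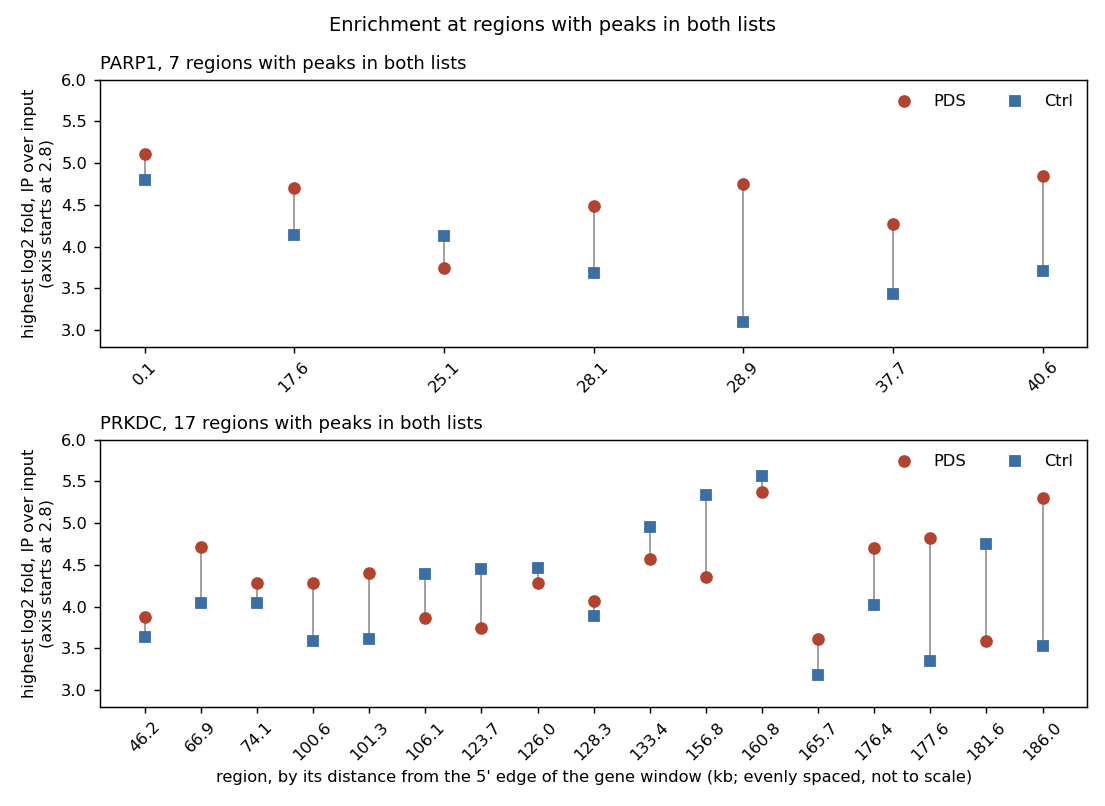
Highest log2 fold enrichment of IP over input in each region with peaks of both lists, for PDS (red circles) and Ctrl (blue squares), ordered by distance from the 5′ edge of the gene window and spaced evenly; the axis starts at 2.8. In PARP1 the PDS value is higher in 6 of 7 regions, in PRKDC in 10 of 17.

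Peak borders coincided at single nucleotides in some PRKDC sites. Of 31 overlapping pairs of a PDS and a Ctrl peak in PRKDC, 6 had a start or an end in common, as did 1 of 17 in PARP1, where 12.1% of the 1002 pairs of the series did so. Over the 4 windows together, 7 of 50 such pairs had a border in common. At 48744483 to 48744487 the same 5 nt were called in both lists, with a log2 fold of 4.07 in PDS and 3.88 in Ctrl. At 48772172 to 48772184 in PDS and 48772172 to 48772180 in Ctrl, both peaks ended at the same downstream nucleotide, with log2 folds of 4.29 and 3.59.

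Most PRKDC sites lay in the 3′ part of the window, as did those of PARP1 in Ctrl. In PDS most PARP1 peaks lay on the 5′ side, but most merged regions did not. In PRKDC, 30 of 44 PDS and 21 of 27 Ctrl peaks lay on the 3′ side of the window's midpoint. In PARP1, 13 of 33 PDS and 8 of 12 Ctrl peaks did, and after merging 7 of 13 PDS and 7 of 9 Ctrl regions. The longest stretch between regions was 32.8 kb in PDS and 26.4 kb in Ctrl for PRKDC, and 9.91 kb and 17.3 kb for PARP1. Since introns were not told from exons, these shares describe the genomic window and not the mature mRNA. Peaks were short in both genes: the median width was 37 nt in PDS and 56 nt in Ctrl for PARP1, and 41.5 and 45 nt for PRKDC, against 63 and 74 nt in the whole lists.

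The Ku genes held few peaks beside PARP1 and PRKDC, and those of XRCC5 were weak. In XRCC6 the median log2 fold was 3.92 over 2 PDS peaks and 3.79 over 2 Ctrl peaks. The whole lists had medians of 3.59 and 3.52. By −log10 p both XRCC6 PDS peaks lay below the PDS list median of 17.8. XRCC6 had a single site found in both lists: 2 abutting PDS peaks at 42046788 to 42046840 (log2 fold 4.17, −log10 p 13.3) and 42046841 to 42046895 (3.66, 11.9), against 1 Ctrl peak at 42046810 to 42046893 (4.07, 12.2). Together the PDS pieces enclosed the Ctrl peak. The second Ctrl peak of XRCC6, at 42059672 to 42059762, lay 338 nt from the 3′ edge of the window with a log2 fold of 3.51 and a −log10 p of 5.03, and the PDS list had none there. In XRCC5 the PDS peaks lay at 216990640 to 216990721 (log2 fold 3.01, −log10 p 8.96) and 217024830 to 217024886 (3.33, 8.07), and the Ctrl peak at 217001810 to 217001876 (3.24, 4.57). No XRCC5 peak overlapped or lay within 100 nt of a peak of the other list. The XRCC5 values stood near the lower limit of the lists, where every log2 fold exceeds 3 and the lowest −log10 p was 4.31 in PDS and 3.66 in Ctrl. Levels of these mRNAs were not measured in the lists, so few peaks cannot be told apart from few reads. RefSeq names 5 pseudogenes after XRCC6, 2 after PARP1 and 0 after XRCC5 and PRKDC, and how reads that match several places were treated is not given in the sources used here.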

How the data were processed

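The submitters' processing notes name cutadapt, UMI-tools and STAR, and hg19 as the build. How peaks were called and filtered and how replicates were combined was not stated. The authors deposited 1 list per condition, with no header. One value per peak was read as the authors' −log10 p (400 standing in for values beyond 87.9) and the other as their deposited log2 fold of IP over input. Both units were inferred from the range of the values. Starts were taken as counted from 0 and are printed counted from 1.

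Peaks lying wholly inside the given windows on the given strand were kept. Overlap meant at least 1 nt on the same strand, regions were same-strand peaks merged within 50 nt, and loci were chained over 10000 nt. The tools were pandas 2.3.3, numpy 2.4.6, scipy 1.17.1 and matplotlib 3.10.9 under Python 3.11.15. Overlap was checked with planted peaks and by direct counting on a single chromosome. Covered length was checked by direct counting there. Merging over 50 nt or 10000 nt was not checked by itself. No significance test was made. Named were all peaks where a window has 5 or fewer in a list, otherwise the 5 most enriched, the widest region and those nearest the edges. The members and lists were chosen with earlier results of these data known. Other break repair genes were not counted and no sequences are shown, because an hg19 annotation or genome was not used here. The cell line could not be checked against marker genes in a peak list. Whether the replicates were separate cultures is not stated in the labels.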

Additional observations from a re-analysis of the deposited data

How the results depend on the processing

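Of 91 alternative values over 18 results, 65 stayed close to the main one (within 1.5 times for counts, within the main 95% interval for shares, within 1 SD of the peaks for medians) and 26 moved. These limits are wide. For the 2 PDS peaks of XRCC6 the interval ran from 15.8 to 100%, so a fall from 100 to 50% counted as close. A rise of the PRKDC Ctrl median from 3.76 to 4.45 also counted as close. The order of PDS and Ctrl in PRKDC turned under 2 alternatives, to 24 against 27 peaks with the PDS list shortened by −log10 p and to median log2 folds of 4.35 against 4.45 with the stricter threshold; without peaks under 20 nt both medians were 4.02. With both lists held to a −log10 p of at least 5 and a log2 fold of at least 4, PARP1 had 21 PDS and 3 Ctrl peaks, PRKDC 23 and 12, XRCC5 0 and 0, and XRCC6 1 and 1; the shared percentage of PDS peaks was then 14.3 in PARP1 and 39.1 in PRKDC, that of Ctrl peaks in XRCC6 was 100, and the median log2 fold of PARP1 Ctrl peaks was 4.14. Merging gave PARP1 13 PDS regions within 50 nt and 17 from touching peaks, and XRCC6 1 in either way. With the PDS list cut to 1421 peaks by −log10 p, PRKDC had 24 PDS peaks, XRCC5 0 and XRCC6 0, and sharing was 83.3% of PDS and 59.3% of Ctrl peaks in PRKDC and 0% of Ctrl peaks in XRCC6; cut by log2 fold, XRCC5 had 0. Within 100 nt, 66.7% of PARP1 PDS peaks were shared. With reciprocal overlap of 50%, 38.6% of PDS and 59.3% of Ctrl peaks in PRKDC were shared. By construction, stricter limits, shorter lists and merging can only lower the counts. The stricter threshold also holds every median at 4 or above, because it removes all peaks with a log2 fold below 4. Allowing 100 nt between peaks can only raise sharing, and reciprocal overlap can only lower it. Other causes of the shifts were not tested. No paired analysis was possible because each list combines its replicates into a single value per peak, which also means that leaving out a replicate could not be tried. Unknown depth limits any statement on a peak missing from a list.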
